A study of Homo sapiens with 16 samples.

Results

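Mitochondrial ribosomal proteins are the proteins of the ribosome inside mitochondria, and the genes that encode them are carried by the nucleus. They were followed in SUM-225, a human breast cancer cell line that carries extra copies of HER-2 and over expresses it, during exposure to a HER-2 inhibitor, CP724,714. Members were the probes whose gene symbol began with MRPL or MRPS followed by a digit and whose signal was detected, at a detection p under 0.05, on 3 or more of 16 bead arrays. By symbol 104 of the 24526 probes qualified, and 99 of these, from 73 genes, were detected often enough. The other probes, for MRPL42P5, MRPL44, MRPS18C and one each of MRPL39 and MRPL4, were not analysed further. Nearest the detection threshold, the MRPL27 probe ILMN_1753976 lay just inside with detection on 4 arrays and the MRPL44 probe just outside with detection on 2 arrays. Of the 99 probes, 96 were detected on every array.

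All cultures received 1 µM CP724,714, and RNA was taken from parallel cultures every 3 h from 0 h to 45 h. Each time point had 1 array, the 0 h array marks the start of exposure, and no untreated time series was analysed here. A time effect and a drug effect therefore cannot be told apart. No time point had a replicate, so the error of each probe came from its deviations around a smooth course through the 16 arrays, and p-values measure only that spread. The labels of these samples give Ham's F-12 medium with serum, insulin and hydrocortisone, whereas the study's methods describe culture of this line free of serum and insulin, and the medium of these cultures is therefore uncertain. The line is 1 cell line, and in total RNA fewer cells of a kind and less RNA per cell cannot be told apart.

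The mitochondrial ribosome translates the few messages of the mitochondrial genome, which encode core subunits of the respiratory chain and of ATP synthase. Its small subunit binds the message and reads the codons, and its large subunit joins the amino acids and passes the new chain to the inner membrane. Some of its proteins descend from the bacterial ribosome and others are found only in mitochondria, and all of them are made in the cytosol and imported. Here 68 probes of 48 genes belonged to the large subunit and 30 probes of 24 genes to the small subunit. MRPS30 and MRPS18A were counted with the large subunit, where their proteins sit. MRPS36 was counted with neither, because RefSeq now names it KGD4, a component of the 2-oxoglutarate dehydrogenase complex.

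Median signals of the arrays lay between 242 and 384, and between 57.5% and 61.5% of probes were detected per array. The arrays at 0 h and 45 h had the lowest weights when arrays were weighted by how well they followed the fitted courses, at 0.297 and 0.270. Next came the arrays at 9 h and 6 h, at 0.509 and 0.559. The epithelial and HER-2 amplicon markers ERBB2, GRB7, KRT8, KRT18, KRT19, CDH1 and TACSTD1 were detected on all 16 arrays. Of the markers of other cell types, PTPRC and VIM were detected on 0 arrays, CD3E on 1, COL1A1 and COL1A2 on 5 each, and PECAM1 on 16.

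More transcripts for mitochondrial ribosomal proteins fell than rose over the time series. Signals were corrected for background, quantile normalized and put on a log2 scale, and a cubic curve in hours was fitted to each of the 16110 probes detected on 3 or more arrays. The linear change is the straight-line part of that curve over 45 h, in log2 units. Of the 99 members 53 fell and 6 rose at an adjusted p under 0.05 (limma, Benjamini-Hochberg over all probes tested), and 40 passed in neither direction. The 59 calls compare with 47.7% of all probes called. Among all probes tested 21.7% fell and 26% rose. The median linear change of the members was -0.26, with quartiles of -0.42 and -0.01, beside a median of 0.05 and quartiles of -0.32 and 0.41 over all probes. A negative linear change, called or not, was found for 74 members and for 46.1% of all probes. With 1 probe per gene, 42 of 73 genes fell, 2 rose and 29 passed in neither direction, beside 22% falling and 27% rising over all genes.

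Of the 53 falls 18 were of at least 0.5 log2 units, which is 18.2% of the members beside 15.6% of all probes. No called rise was as large, beside 18.5% of all probes. A level at least 1.7-fold below that at 0 h was seen at some later time for 17 members, against 26% of all probes, and a level at least 1.7-fold above it for 1 member, against 25.6%. The members also scattered less around their fitted courses, with a median residual SD of 0.11 against 0.19 for all probes. Their share of calls at a small change is therefore set against probes that were measured less tightly.

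**Figure D1:**
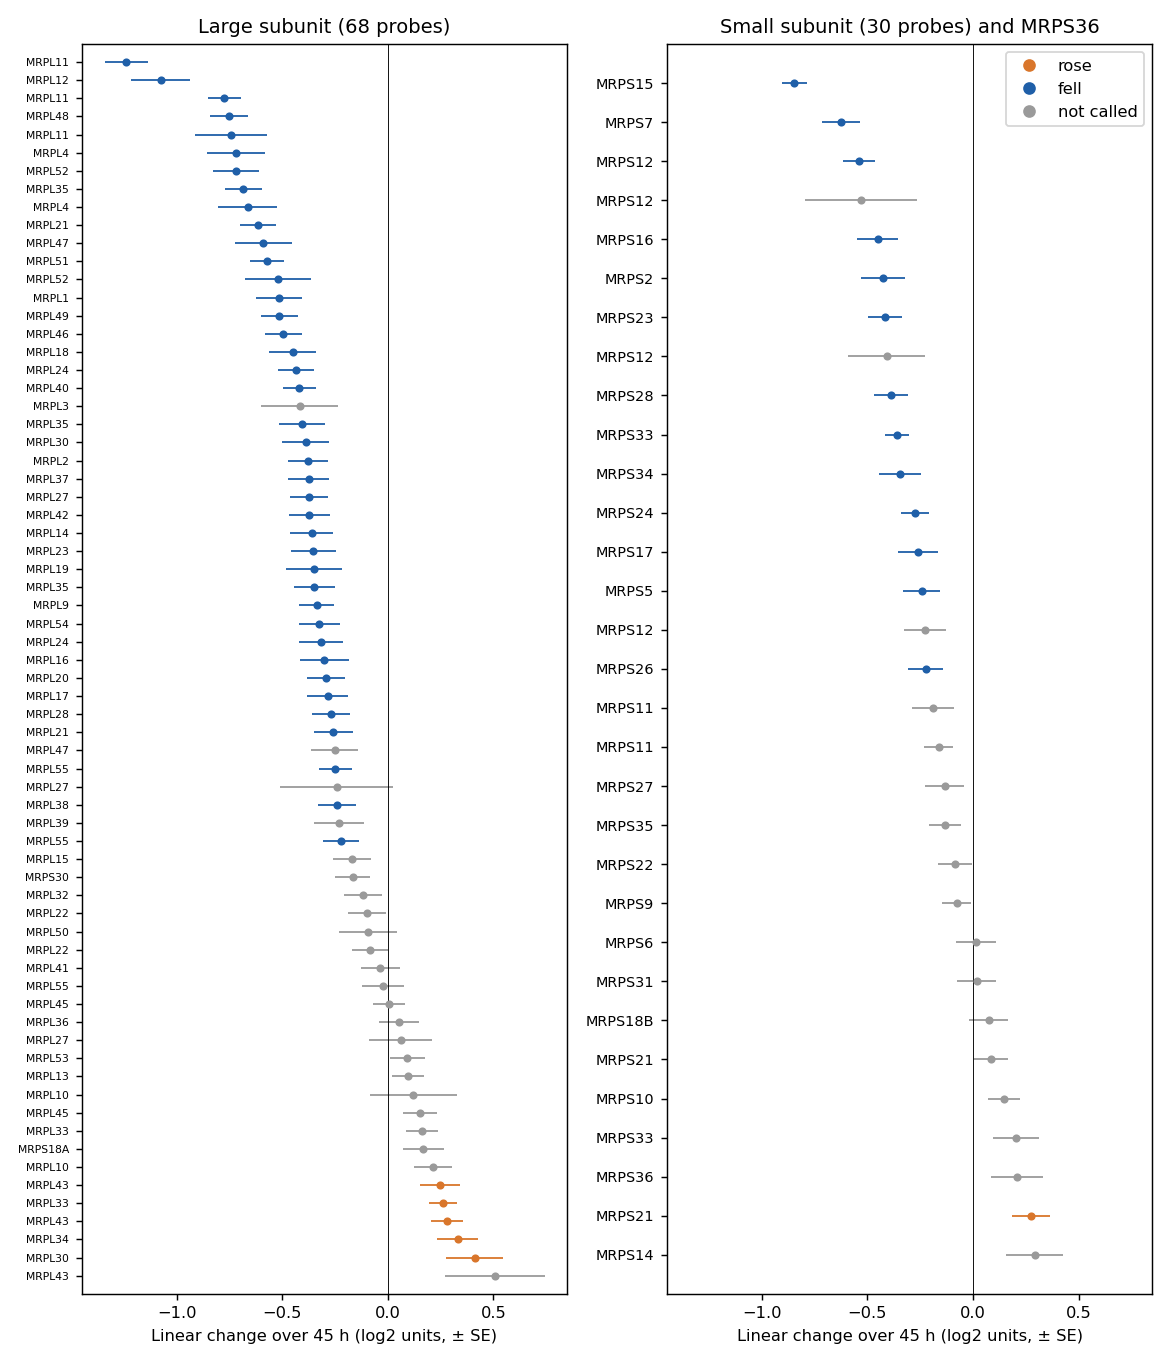
Linear change over 45 h in log2 units (horizontal axis, points with SE bars) for each of the 99 members (1 row per probe), with the 68 probes of the large subunit on the left and the 30 of the small subunit with MRPS36 on the right. Blue points fell, orange points rose and grey points passed the test in neither direction. The points run from -1.24 for MRPL11 to 0.51 for a dim MRPL43 probe, and most of them lie left of 0 in both panels.

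A time-dependent signal, by the test of the whole cubic curve, was called for 65 of the 99 members, against 51.3% of all probes. Departure from a straight line was called for 27 members against 19.3% of all probes, and without the 45 h array it was called for 14 against 12.9%. With both the 0 h and the 45 h arrays left out, 40 members fell against 19.8% of all probes and 4 rose against 24.2%. Then 49 members were time-dependent against 43.5% and 15 departed from a straight line against 12.8%.

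Falling probes outnumbered rising ones in both subunits, while 21.7% of all probes tested fell and 26% rose, with a median of 0.05. In the large subunit 40 of 68 probes fell and 5 rose, with a median linear change of -0.30. In the small subunit 13 of 30 probes fell and 1 rose, with a median of -0.22. The difference of the medians was -0.07 log2 units. It was 0.02 when a step after the 21 h array was allowed for, -0.03 without the 45 h array and -0.12 without the 39 h array, so its size and sign were not settled. Without the 0 h array the small subunit median was -0.12.

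The median courses of the subunits were also compared array by array. Each probe was centred on its own mean, and the median over probes was taken on each array. The large subunit median was 0.24 at 0 h and 3 h, 0.13 at 6 h and 0.01 at 9 h, and it lay between -0.10 and 0.04 on every later array. The small subunit median was 0.22 at 0 h, 0.11 at 3 h and 6 h and 0.04 at 9 h, and lay between -0.08 and 0.03 thereafter. The large subunit was above the small on 10 arrays and below it on 6, and the difference ranged from -0.04 at 33 h to 0.13 at 3 h with an SD of 0.04 over arrays. The 3 h array was thus the one where the subunit medians stood farthest apart. Taken per probe, the median change from 0 h to 3 h was -0.03 in the large subunit and -0.03 in the small.

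**Figure D2:**
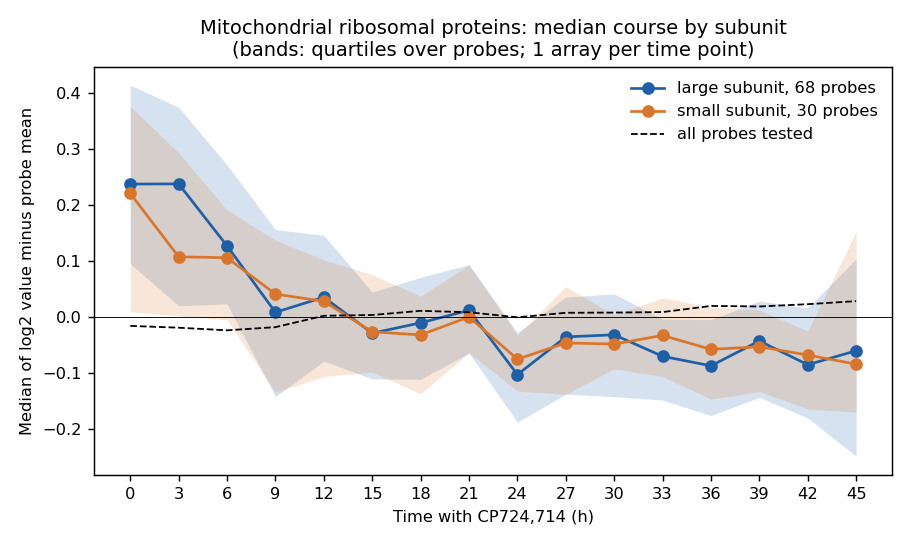
Median over probes of the log2 value minus the probe's own mean (vertical axis) at each time in hours (horizontal axis), for the large subunit (blue), the small subunit (orange) and all 16110 probes tested (dashed). Shaded bands are the quartiles over probes. Both subunits start above 0.2, reach 0.04 or less by 9 h and remain close to each other afterwards, while the dashed line stays within 0.03 of 0.

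The descent was concentrated in the early arrays. From 0 h to 9 h, 71 of the 99 members were lower, against 47.9% of all probes, with a median change of -0.16 for the members and 0.02 for all probes. The largest step of the series was from 6 h to 9 h, where 72 members were lower, against 48.5% of all probes, and 26 higher. Array weights were low at 6 h and 9 h, 0.56 and 0.51. Between 12 h and 21 h the median change was 0.00, with 49 members lower against 49.8% of all probes. A further drop came from 21 h to 24 h, with 70 members lower against 51.1% of all probes. The member median was 0.22 on the 0 h array, beside -0.02 over all probes. The 24 h array had the lowest member median of the series, -0.09, beside -0.0005 over all probes. At 27 h the member median was -0.04, beside 0.01 over all probes. Counted from the low 24 h array, the median change to 45 h was 0.03 for the members and 0.04 for all probes.

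Whether the decline was gradual or went in steps was not resolved by these arrays. The 4 consecutive sets of 4 arrays had member medians of 0.14 for 0 to 9 h, -0.01 for 12 to 21 h, -0.07 for 24 to 33 h and -0.06 for 36 to 45 h. With the set as a factor beside a straight line in hours, limma called 0 of the 99 members at an adjusted p under 0.05, against 0.9% of all probes. At an unadjusted p under 0.05 it called 9 members against 14.7% of all probes, and 8 of the 9 were falling against 6.99%. The median change within sets was still -0.20 over 45 h, and the median SE was 0.41 in that fit against 0.09 without sets. In a separate fit, the cubic curve without sets but with a term for a step after the 21 h array, 11 members fell against 9.17% of all probes and 2 rose against 10%. The share of members falling was then 11.1%, near that of all probes. Sets and steps are not named in the labels, and set and time cannot be fully told apart.

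Without any overlap between their first 4 arrays (0 to 9 h) and their last 4 arrays (36 to 45 h), 29 members were lower late and 5 were higher late, beside 16.3% and 19.7% of all probes. The linear test passed 27 of the lower ones, and the exceptions were single probes of MRPL39 and MRPL22.

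The steepest fall among the members was that of MRPL11, whose bacterial relative lies at the stalk base where translation factors dock. The MRPL11 probe ILMN_1690371 began at 12.67 on the log2 scale, read 12.58, 12.53 and 12.11 at 3 h, 6 h and 9 h, was at 11.89 by 12 h and ended at 11.36. It reached its lowest level on the last array, and its first and last 4 arrays did not overlap. The linear change was -1.24 ± 0.10 (SE, 16 arrays; limma adjusted p = 7.9e-09). Both other MRPL11 probes also fell, with changes of -0.77 ± 0.08 for ILMN_2316540 and -0.74 ± 0.17 for ILMN_1676458. The ILMN_2316540 probe read 13.63 to 13.70 through 9 h and fell below that only from 12 h on, so the probes of this gene did not share the time of the first drop.

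MRPL12, the stalk protein itself, had the widest range of all members, 3.01-fold over the 16 arrays. It began at 13.01, read 13.11, 12.84 and 12.04 on the next 3 arrays, lay between 11.80 and 12.22 from 12 h to 42 h and ended at 11.52. The greater part of its fall thus came within a single 3 h step. The linear change was -1.08 ± 0.14 (limma adjusted p = 3.6e-06), curvature was called (adjusted p = 0.013), and 1 of the first 4 arrays, that at 9 h, overlapped the last 4. With a step after 21 h in the fit the change was -0.75 and the adjusted p 0.152.

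MRPS15, an rRNA-binding protein of the small subunit, fell in a different manner. It stayed between 14.39 and 14.50 through 9 h, lay between 14.13 and 14.32 from 12 h to 21 h, between 13.90 and 14.06 from 24 h to 33 h, and ended at 13.59. Its decline was close to a straight line (adjusted p of curvature = 0.532), and the linear change of -0.85 ± 0.06 had a limma adjusted p of 1.3e-09. The next small subunit protein, MRPS7, whose bacterial relative starts the assembly of the subunit head, fell, with a linear change of -0.63 ± 0.09. It read 13.24 at 0 h and 12.89 at 45 h. With the set as a factor its change was 0.27 ± 0.31.

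Other large falls belonged to the large subunit. MRPL48, a protein found only in mitochondria, fell, with a linear change of -0.75 ± 0.09. Its highest value was 11.56 at 0 h and its lowest 10.86 at 36 h. Both tested probes of MRPL4, whose bacterial relative lines the exit tunnel, fell, with changes of -0.72 ± 0.14 and -0.66 ± 0.14. MRPL52, another protein particular to mitochondria, fell by both probes, with changes of -0.72 ± 0.11 and -0.52 ± 0.16. MRPL51 had the highest mean log2 value of the members, 14.90, ran from 15.03 at 0 h through 15.27 at 9 h to 14.61 at 45 h, and fell by 0.57 ± 0.08. Its raw signal reached at most 60.1% of the highest signal on the same array, so the ceiling of the scale was not met.

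Rises were few and slight. MRPL34, a small protein of the bacterial type, began at 12.41, lay between 12.30 and 12.58 until 21 h, dropped to 12.18 at 24 h, and lay between 12.62 and 12.76 from 36 h on. It rose by 0.33 ± 0.10 (limma adjusted p = 0.008), its first and last 4 arrays did not overlap, and its course dipped between the 21 h and 24 h arrays. MRPL43, a large subunit protein particular to mitochondria, rose by 0.28 ± 0.07 and 0.25 ± 0.10 by its probes ILMN_2258774 and ILMN_1700477. The latter call had an adjusted p of 0.039 and was lost on leaving out any one of 7 arrays, those at 0 h, 9 h, 15 h, 30 h, 36 h, 39 h and 42 h, with adjusted p from 0.050 to 0.088. MRPL33, also of the bacterial type, rose by 0.26 ± 0.07 by 1 probe, and by its other probe the change was 0.16 ± 0.08 (adjusted p = 0.087).

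MRPS21 held the only rise in the small subunit. Its probe ILMN_1660292 began at 10.28, its lowest value, read 10.47 at 3 h, and then lay between 10.59 and 10.85. The linear change of 0.27 ± 0.09 had an adjusted p of 0.017, and without the 0 h array it was 0.16 with an adjusted p of 0.206. Without the 3 h array it was 0.24 with an adjusted p of 0.056. The other MRPS21 probe had a change of 0.09 ± 0.08 and did not pass.

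**Figure D3:**
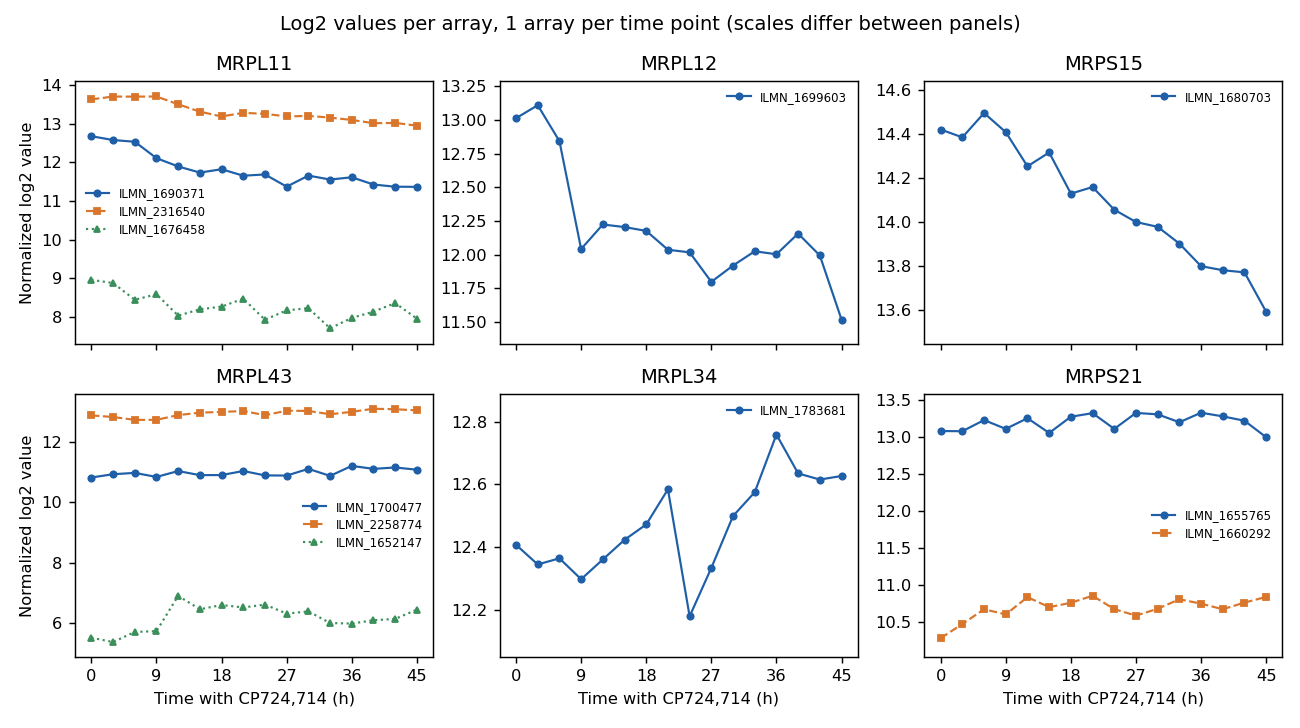
Normalized log2 value (vertical axis, a scale of its own in each panel) on each array against time in hours (horizontal axis) for the probes of MRPL11, MRPL12, MRPS15, MRPL43, MRPL34 and MRPS21, with 1 line per probe. MRPL12 drops from 12.84 to 12.04 between 6 h and 9 h, MRPS15 goes down from 14.50 at 6 h to 13.59 at 45 h, and MRPL34 dips to 12.18 at 24 h before its high values from 36 h on.

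The upstream sequences are shown for the genes whose probes had the largest called fall and the largest called rise in each subunit. The promoters of the members were also set against those of other genes. RefSeq promoters (GRCh38.p14; 250 bases before to 50 after the gene start) matched 64 of the 73 genes. Letters searched on both strands were CCGGAAG (the core bound by ETS factors such as GABPA), AAGATGG (bound by YY1), GCGCA and GCGC with any base between (bound by NRF1) and CACGTG (the E-box bound by MYC). Capitals mark matches in the 250 bases before the start, written on the strand of the gene. MRPL11 lies at chr11:66438849-66439098 on the minus strand, MRPS15 at chr1:36464385-36464634 on the minus strand, MRPL30 at chr2:99180934-99181183 on the plus strand and MRPS21 at chr1:150293611-150293860 on the plus strand.
MRPL11: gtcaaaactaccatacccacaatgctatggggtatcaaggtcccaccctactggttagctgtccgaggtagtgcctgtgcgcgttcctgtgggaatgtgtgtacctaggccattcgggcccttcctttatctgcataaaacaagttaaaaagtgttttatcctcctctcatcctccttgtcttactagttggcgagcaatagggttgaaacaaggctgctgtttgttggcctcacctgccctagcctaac
MRPS15: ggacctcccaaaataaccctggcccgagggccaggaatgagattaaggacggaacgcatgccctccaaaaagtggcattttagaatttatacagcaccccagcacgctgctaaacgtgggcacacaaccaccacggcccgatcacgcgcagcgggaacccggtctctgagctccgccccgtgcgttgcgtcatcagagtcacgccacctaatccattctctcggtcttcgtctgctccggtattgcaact
MRPL30: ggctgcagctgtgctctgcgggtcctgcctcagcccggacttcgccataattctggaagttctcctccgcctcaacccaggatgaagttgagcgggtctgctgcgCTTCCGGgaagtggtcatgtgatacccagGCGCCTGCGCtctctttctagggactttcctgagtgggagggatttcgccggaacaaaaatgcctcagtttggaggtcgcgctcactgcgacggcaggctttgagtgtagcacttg
MRPS21: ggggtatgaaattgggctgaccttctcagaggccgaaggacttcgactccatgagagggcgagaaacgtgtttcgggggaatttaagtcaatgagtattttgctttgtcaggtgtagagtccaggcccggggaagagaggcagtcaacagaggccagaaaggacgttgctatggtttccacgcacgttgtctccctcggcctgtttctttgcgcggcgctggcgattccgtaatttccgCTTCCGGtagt

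MRPL30 is shown for its rising probe, although its brighter probe fell. In MRPL30 the first run of capitals is the ETS core and the next the NRF1 letters, both on the opposite strand. In MRPS21 the ETS core ends close to the start. MRPL11 and MRPS15 had no match in this upstream window, which says only that these letters are not there. Past the start, outside the printed bases, MRPL11 held AAGATGG at position 24 and MRPS21 another ETS core at position 7. Among the 64 member promoters 42.2% held the ETS core, against 10.7% of all 27305 promoters and 17% of the 7831 promoters of symbols tested here. AAGATGG was in 35.9% of member promoters, against 6.06% and 7.2%. The letters of AAGATGG contain the start codon ATG, and 16 of its 24 occurrences in member promoters lay on the gene's strand at or after the start. NRF1 letters were in 10.9% of member promoters, against 6.28% of all promoters and 10.1% of those of symbols tested here. The E-box was in 7.81%, against 7.43% and 9.69%. Beside the symbols tested here, the NRF1 share was thus about the same and the E-box share lower. Matches may overlap, and 0 of the 36 ETS cores overlapped AAGATGG.

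The share of promoters with an ETS core was 43.2% over the 37 genes whose probe with the highest mean log2 value fell and 40.0% over the 25 genes whose probe passed in neither direction. For AAGATGG these shares were 29.7% and 48.0%. By subunit the ETS core was in 41.5% of large and 43.5% of small subunit promoters, and AAGATGG in 39.0% and 30.4%.

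Genes measured by more than 1 probe gave a check within the gene. Of 19 such genes, 6 (MRPL4, MRPL11, MRPL21, MRPL24, MRPL35 and MRPL52) fell by every probe, and MRPL10, MRPL22, MRPL45 and MRPS11 passed the linear test by no probe. In 8 genes some probes passed and others did not. Among these MRPL27, MRPL47, MRPL55, MRPS12 and MRPS33 had probes that fell, and MRPL33, MRPL43 and MRPS21 had probes that rose. MRPL35, a protein of the bacterial type, fell by 0.68 ± 0.09, 0.41 ± 0.11 and 0.35 ± 0.10 by its 3 probes. In MRPL47 the probe ILMN_1687036 fell by 0.59 ± 0.14, and ILMN_2391522 had a change of -0.25 ± 0.11 (adjusted p = 0.070). Some calls were lost without an early array. The MRPL52 probe ILMN_1713966 was no longer called without the 0 h array (-0.36, adjusted p = 0.102) or the 3 h array (-0.43, adjusted p = 0.053), and the MRPL27 probe ILMN_1811327 was no longer called without the 0 h array (-0.23, adjusted p = 0.078).

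MRPL30 was the 1 gene with calls in both directions. Its probe ILMN_1661039 began at 8.75, was lowest at 12 h with 8.43, ended at its highest value of 9.38, and rose by 0.41 ± 0.14 (limma adjusted p = 0.017). Its probe ILMN_1766154 began at 11.28, was highest at 6 h with 11.48, ended at its lowest value of 10.71, and fell by 0.39 ± 0.11 (adjusted p = 0.008). The rise rested on the last array, since without the 45 h array the change was 0.28 with an adjusted p of 0.120. The direction of change of MRPL30 as a gene is therefore uncertain. The table gives both probes the same symbol, and whether they read different transcripts was not tested.

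MRPS12, a protein of the decoding centre, was read by 4 probes. ILMN_1714515 fell, with a linear change of -0.54 ± 0.08, and read 13.03 at 0 h and 12.40 at 45 h. ILMN_2371964, ILMN_1754860 and ILMN_1810866 had changes of -0.23 ± 0.10, -0.41 ± 0.18 and -0.53 ± 0.26 that did not pass. All 4 changes were negative, and the last probe was detected on 8 of 16 arrays. In MRPS33 the probe ILMN_1741264 fell by 0.36 ± 0.06, and ILMN_1772722 had a change of 0.21 ± 0.11 (adjusted p = 0.130). MRPL27, which reaches toward the catalytic centre, fell by 0.37 ± 0.09 by ILMN_1811327. Its dim probe ILMN_1753976, with the lowest mean log2 value of the members (5.82), had a change of -0.24 ± 0.27.

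**Figure D4:**
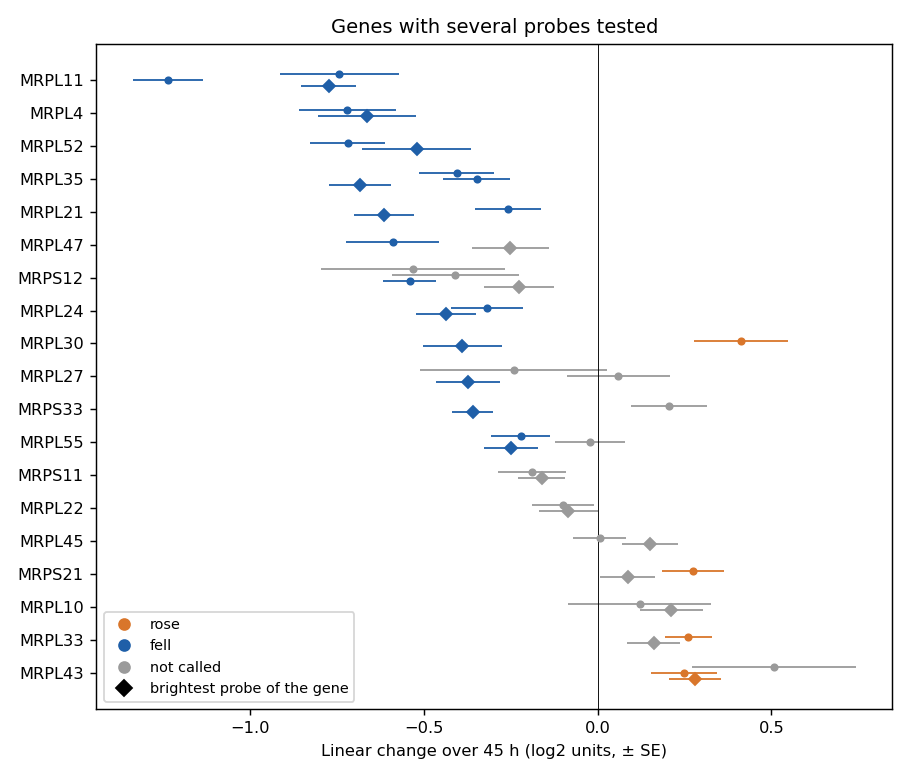
Linear change over 45 h in log2 units (horizontal axis, points with SE bars) for every probe of the 19 genes with several probes tested (rows), diamonds marking the probe with the highest mean log2 value. Blue points fell, orange points rose and grey points did not pass. MRPL11, MRPL4, MRPL52, MRPL35, MRPL21 and MRPL24 are blue throughout, and MRPL30 alone holds a blue and an orange point.

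Of the 27 members that departed from a straight line, 7 did not pass the linear test. The 5 of these with the widest range are described here. The MRPL43 probe ILMN_1652147, detected on 10 arrays, read 5.37 to 5.74 through 9 h, 6.90 at 12 h and between 5.99 and 6.61 afterwards (curvature adjusted p = 0.019). MRPL3, whose bacterial relative lies near the catalytic centre, read 7.35 at 0 h and had its lowest value of 6.22 at 30 h. It read 6.73 at 42 h and 7.37 at 45 h (curvature adjusted p = 0.023). Its raw signal was low, between 235 and 378. The courses of this MRPL43 probe and of MRPL3 bent in opposite directions, the former high in the middle of the series and the latter low. MRPS11, of the platform of the small subunit, was highest at 6 h with 12.14 and lowest at 27 h with 11.52 by ILMN_2405915 (adjusted p = 0.006). That probe read 11.81 at 42 h and 12.10 at 45 h. MRPL10, the anchor of the stalk that carries MRPL12, was lowest at 3 h with 11.04 and highest at 27 h with 11.62 by ILMN_2396002 (adjusted p = 0.005). That probe read 11.38 at 42 h and 11.10 at 45 h. The 45 h array, the source of these final readings, had the lowest array weight, 0.27. MRPS12 by ILMN_2371964 was highest at 0 h with 15.00 and lowest at 39 h with 14.25 (adjusted p = 0.040). MRPL17, a neighbour of the exit tunnel, had the lowest p of this test among the members (adjusted p = 1.1e-04) beside a linear fall of 0.29 ± 0.10, and was named after its values were seen. That fall rested on the first arrays, with a change of -0.01 (adjusted p = 0.946) without the 0 h array and -0.14 (adjusted p = 0.318) without the 3 h array.

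The members resembled one another in shape to varying degrees. Pearson's r over the 16 arrays between a member and the median course of the other members had a median of 0.65 with quartiles of 0.10 and 0.76, above 0.5 for 61 members and below 0 for 23. The values share arrays and normalization and are given as a description. MRPS12 by ILMN_1714515 followed the others most closely (r = 0.97), then MRPL35 by ILMN_2341952 (0.93) and MRPL11 by ILMN_1690371 (0.92). The most opposed courses were those of MRPS21 by ILMN_1660292 and MRPS33 by ILMN_1772722, both with r of -0.73. Pairs of probes within the large subunit had a median r of 0.27, pairs within the small subunit 0.20 and pairs across subunits 0.26. The median signal of the arrays had an r of -0.28 with the median course of the members.

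Members of the bacterial family and those found only in mitochondria leaned the same way. Among all probes tested 21.7% fell and 26% rose, with a median linear change of 0.05. Of 66 probes for proteins with a bacterial relative 38 fell and 4 rose, with a median linear change of -0.29. Of 32 probes for proteins particular to mitochondria 15 fell and 2 rose, with a median of -0.19. The linear change was -0.17 ± 0.08 for MRPS30 (adjusted p = 0.112), 0.17 ± 0.10 for MRPS18A (adjusted p = 0.170) and 0.21 ± 0.12 for MRPS36 (adjusted p = 0.174), and none of these passed.

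Other genes of mitochondrial translation, taken by 1 probe per gene, had medians closer to 0 than the -0.27 of the members. Over all genes, taken in the same way, 22% fell and 27% rose. Of the 5 tested mitoribosomal proteins with symbols of another kind, 2 fell and 0 rose, with a median of -0.12. GADD45GIP1, a large subunit protein, fell by 0.76 ± 0.29 and AURKAIP1, a small subunit protein, by 0.28 ± 0.06. Of 24 assembly factors 10 fell and 3 rose, with a median of -0.05. NOA1, a GTPase needed for the small subunit, had the largest change of that list and rose by 0.79 ± 0.08.

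Of 13 tested translation factors 5 fell and 3 rose, with a median of -0.05, beside 22% falling and 27% rising over all genes. MTIF3, an initiation factor, rose by 1.06 ± 0.10, while TUFM, the elongation factor that delivers aminoacyl-tRNA, fell by 0.23 ± 0.08. Of 15 mitochondrial aminoacyl-tRNA synthetases 4 fell and 0 rose, with a median of -0.05. Of 9 tested genes of mitochondrial DNA transcription and upkeep 3 fell and 1 rose, with a median of -0.03. POLG2, the accessory subunit of the mitochondrial DNA polymerase, rose by 1.13 ± 0.17, and TFAM, which packages that DNA, fell by 0.64 ± 0.09.

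Regulators of nuclear genes for mitochondria had a median of -0.27 over 8 tested genes. Of these 2 rose and 1 fell, beside 27% rising and 22% falling over all genes. The coactivator PPARGC1A rose by 0.96 ± 0.17, and the probe named GABPB2, for a beta subunit of the ETS factor GABP, fell by 0.91 ± 0.11. NRF1 and YY1 had changes of -0.27 ± 0.22 and -0.26 ± 0.12 and did not pass. These are transcript levels, and the activity of the factors was not measured.

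The proteins of the cytosolic ribosome were read largely by probes near the top of the scale. Of 82 symbols tested 50 had a probe brighter than any member, with highest signals at a median of 98.4% of the array maximum, where little change can show. Of these 3 fell and 1 rose, with a median of 0.01. Of the 32 probes no brighter than the brightest member 12 fell and 1 rose, with a median of -0.19. Over all 82 symbols 15 fell and 2 rose, with a median of -0.01, beside 22% falling and 27% rising over all genes. RPS7 fell by 3.21 ± 0.12, more than any member. The list was taken by symbol and holds copies of expressed genes such as RPL29P2 and RPL39L, so single probes may read more than 1 gene. This list was not compared further with the members.

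**Figure D5:**
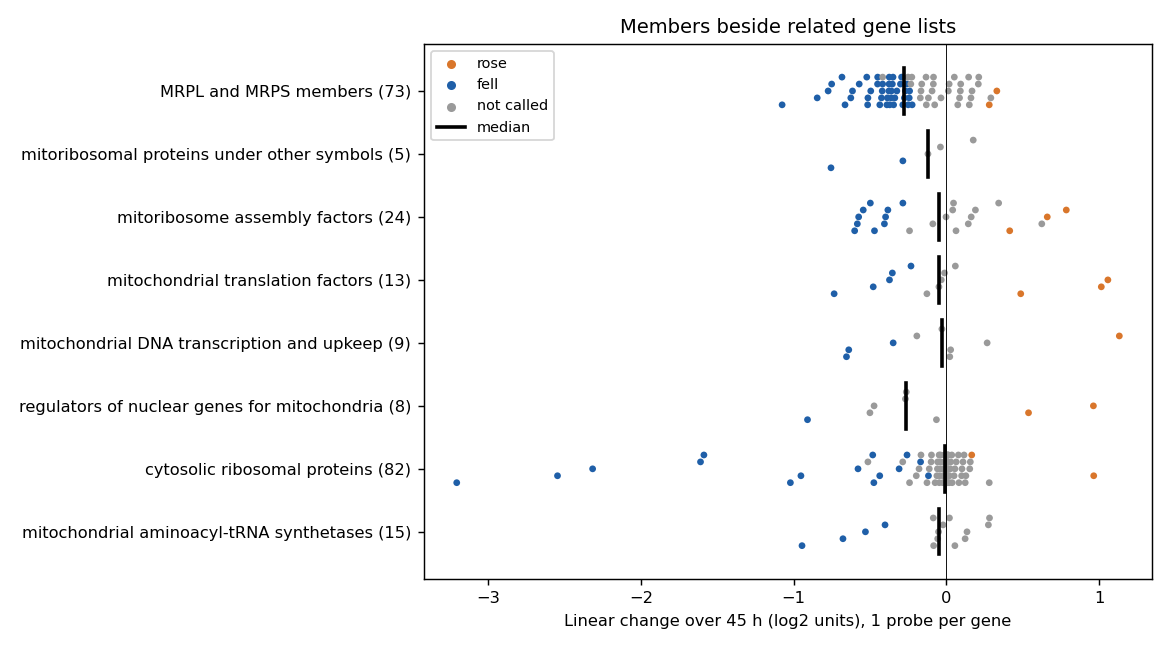
Linear change over 45 h in log2 units (horizontal axis) of each gene, 1 probe per gene, for the 73 member genes and 7 related lists (rows, with the number of genes tested). Blue points fell, orange points rose, grey points did not pass, and black bars are medians. The members centre on -0.27 with few points above 0, and the cytosolic ribosomal proteins, of which 50 have probes brighter than any member, centre on -0.01 with a tail that reaches -3.21.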

How the data were processed

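Biotin-labelled cRNA from total RNA was read on Illumina bead arrays, 1 per time point. The deposited table holds linear signal intensity per probe and array, as the authors left it before background correction or normalization. It also holds a deposited detection p-value for each. All columns of per-sample values were used. The study's methods name quantile normalization for its arrays, a step after this table. For time courses in other cell lines the paper's methods give the Illumina human Ref8v2 array, the labels of these samples name no version, and the scanning software is not given in the sources used here. The table states no genome build.

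Samples were grouped by labelled time, 1 array each. In R 4.3.3, limma 3.58.1 was used for normexp background correction, with controls inferred from the detection p-values and an offset of 16, and for quantile normalization and the log2 scale (neqc). The offset shrinks the changes of dim probes. Bead counts were not used, so the number of arrays limits the precision. Probes that 3 or more arrays detected (p under 0.05) were fitted with a cubic in hours (lmFit, eBayes with an intensity trend). The test of its linear part over 45 h was two-sided. That test, the F-test of the whole curve and the F-test of its remaining parts were adjusted by Benjamini-Hochberg over 16110 probes at 0.05. The fit was tested on simulated data with noise independent between probes and arrays. That simulation held no effect shared by arrays, so it does not bear on sets or steps. All 73 genes matched RefSeq by symbol or synonym.

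The members and lists were chosen with earlier results of these data known. Named members were the 8 largest falls and up to 8 largest rises past the linear test. Also named were up to 5 curved courses without a linear call, by widest range, and the highest and lowest mean log2 value. Every gene with several probes, MRPS30, MRPS18A and MRPS36 were named too. The largest change of each related list was named, except 1 that is not reported here, and others in these lists, with MRPS7 and MRPL17, were chosen after their values were seen. Alternatives were another background correction, offset, normalization, detection filter, time model, array set, probe choice and subunit assignment, array weights and, chosen after seeing the data, leaving out the 0 h and 45 h arrays together.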

Additional observations from a re-analysis of the deposited data

How the results depend on the processing

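No paired analysis was possible because there was a lone array at every time and no replicate number is shared. Of 193 alternative values for the counts and medians of the members, 183 stayed within the limits set for them, the limit for a count being 1.5 times. The number of rising members was 3 with cyclic loess, 2 with a step after 21 h, 2 with 1 probe per gene and 0 with a factor for the set of 4 consecutive arrays. The number falling was 11 with the step and 0 with the set. With the step the large subunit median was -0.11 and the difference between subunits 0.021. Departures from a straight line numbered 15 without the 0 h and 45 h arrays. The sets cost degrees of freedom and share their signal with time, and the cause of the other shifts was not tested. Of the 59 members with a linear call, 0 kept it with the set as a factor and 51 kept the sign of the change. With the step 12 kept the call and 54 the sign, with a straight line alone 46 kept the call, and with cyclic loess 56.

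Leaving out 1 array at a time gave 5 to 7 rising and 39 to 56 falling members, 52 to 68 time-dependent members and 14 to 31 departures from a straight line. The large subunit median ranged from -0.33 to -0.23, the small subunit median from -0.28 to -0.12 and their difference from -0.12 to -0.03. Fewest falls were called without the 0 h array, and fewest departures without the 45 h array. Of the called members 8 turned sign with the set as a factor, MRPL43 ILMN_1700477 (-0.020), MRPL35 ILMN_1812777 (0.15), MRPL47 ILMN_1687036 (0.51), MRPS7 (0.27), MRPS24 (0.17), MRPL37 (0.15), MRPL40 (0.09) and MRPS34 (0.05). Among the probes described, the sign also turned for MRPL24 ILMN_2398995 (0.14) with the step. With 1 array per time point and no replicate culture, small changes at a single time could not be judged.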
